A study of Drosophila melanogaster with 12 samples.

Results

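Aminoacyl-tRNA synthetases are the enzymes that attach each amino acid to its tRNAs. The genes described here were chosen by name: every protein-coding gene whose FlyBase symbol is the 3-letter code of an amino acid followed by RS, with or without the ending -m that marks a mitochondrial enzyme, together with GluProRS. This rule found 33 of 12759 protein-coding genes, of which 18 encode cytosolic enzymes and 15 encode mitochondrial ones. They were measured in whole female Drosophila melanogaster by RNA-Seq and by Ribo-Seq, which sequences the RNA fragments that ribosomes shield from nuclease (footprints). The wild-type flies were White Dahomey, an outbred laboratory stock with a white mutation. The other flies carried EY22749, a P-element insertion in the Pol III subunit gene Polr3D (dC53 in the labels), on the same background and in heterozygous form (Polr3D EY/+). The EY22749 lesion is present in all cells of the fly, so no tissue was targeted, and each library came from a pool of whole animals whose age the sources used here do not give. The study asked whether a partial loss of Pol III, the polymerase that makes tRNAs, alters which mRNAs are translated.

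Every cell needs synthetases for translation on cytosolic ribosomes, and mitochondria need a further set to translate the few proteins encoded by mitochondrial DNA. In animals the genes of these enzymes lie in the nucleus, and the mitochondrial enzymes are made in the cytosol and imported. The enzymes fall into class I and class II by the fold of their catalytic domain, and several cytosolic enzymes are held together with scaffold proteins in a multi-synthetase complex. GluProRS is a fusion that charges both tRNA-Glu and tRNA-Pro. Mitochondria lack a glutaminyl enzyme in most animals and make Gln-tRNA by amidating Glu-tRNA with the GatCAB amidotransferase. GlyRS and LysRS are known in animals to serve both compartments from a single gene, with the mitochondrial form made from another start or splice form.

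The labels give 3 replicates of each genotype in each assay. The table analysed here held 11 libraries, 6 of Ribo-Seq and 5 of RNA-Seq, with no column for the wild-type RNA-Seq library of replicate 3. Protein-coding genes took 24299908 to 28718489 counts in an RNA-Seq library and 1127599 to 3192166 in a Ribo-Seq library, where they were 1.90% to 3.67% of all counts. Values are therefore given relative to a protein-coding total of 1000000 (CPM) and, for levels of a gene, per kilobase of transcript in RNA and per kilobase of coding sequence in footprints (CPM per kb). They are listed in order of replicate number. RNA of Polr3D itself was at 51.7 and 63.6 CPM in the wild-type and 30.5, 29.6 and 30.5 CPM in the Polr3D EY/+ libraries, a log2 change of -0.92 ± 0.24 (SE, adjusted p = 0.0226), the direction that the labels imply. Among markers of the cell types a female fly holds, all those of chorion, fat body and muscle had counts in every library. Of 10 gut genes, 1 was at 0 in each of wild-type Ribo-Seq replicate 2 and Polr3D EY/+ Ribo-Seq replicates 1 and 3. Of 8 female germline genes 7 were found, and 1 of these was at 0 in every Ribo-Seq library. The 13 male markers summed to 0 to 4.70 CPM in 8 libraries. In the other 3 male markers stood higher, at 61.2 CPM in wild-type Ribo-Seq replicate 2, 29.4 CPM in Polr3D EY/+ Ribo-Seq replicate 3 and 25.8 CPM in Polr3D EY/+ RNA-Seq replicate 1, where none of the 13 was at 0. The main counts are also given without each of these libraries. Whole flies mix many cell types, so fewer cells of a type and less RNA per cell cannot be told apart.

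The genes were spread over the genome, 6 on 2L, 8 on 2R, 10 on 3L, 6 on 3R and 3 on X in the BDGP6.54 annotation. The X chromosome held ArgRS, HisRS and LysRS and no mitochondrial enzyme. TyrRS (3L, 16417349 to 16419302) and the mitochondrial GluRS-m (3L, 16415292 to 16417177) are neighbours on the minus strand, 171 bases apart. Exons of 14 of the 33 genes overlap those of a protein-coding gene on the other strand, by 3 to 302 bases, and 10 of these 14 encode mitochondrial enzymes. The longest such overlaps are CysRS-m with CG13016 (302 bases), SerRS-m with Nagk (251 bases) and ArgRS-m with mRpS9 (163 bases). Exons of HisRS overlap Bx on the same strand by 255 bases, and those of AspRS and GluProRS overlap antisense RNAs by 1025 and 759 bases. Whether the counting used the strand is not stated in the sources used here, so reads in these stretches cannot be assigned with certainty.

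The cytosolic enzymes were the abundant set in both assays, and more so in footprints. Their summed RNA was 2771 and 3150 CPM in the wild-type and 3252, 2740 and 3220 CPM in the Polr3D EY/+ libraries. The summed RNA of the mitochondrial enzymes was 427 and 491 CPM in the wild-type and 487, 415 and 462 CPM in the mutant. The ratio of the sums was thus 6.45 ± 0.05 (SD, n = 2) in the wild-type and 6.75 ± 0.20 (SD, n = 3) in Polr3D EY/+. In footprints the ratio of the sums was 14.2 ± 1.27 (SD, n = 3) in the wild-type and 13.98 ± 0.86 (SD, n = 3) in Polr3D EY/+. Per kb, the median cytosolic gene had 5.14 ± 0.63 (SD, n = 2) and 5.19 ± 0.20 (SD, n = 3) times the RNA of the median mitochondrial gene. The corresponding factors in footprints were 9.85 ± 0.38 (SD, n = 3) and 10.01 ± 1.03 (SD, n = 3). The values of the assays did not overlap in any library. Between the genotypes the footprint ratios overlapped, while the RNA ratio of sums was 6.41 and 6.48 in the wild-type and 6.597 to 6.97 in the mutant. Depth differs with these levels: a cytosolic gene had 75 to 1582 counts in a Ribo-Seq library and a mitochondrial gene had 4 to 203, so the footprint values of the mitochondrial enzymes are the less precise.

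**Figure D1:**
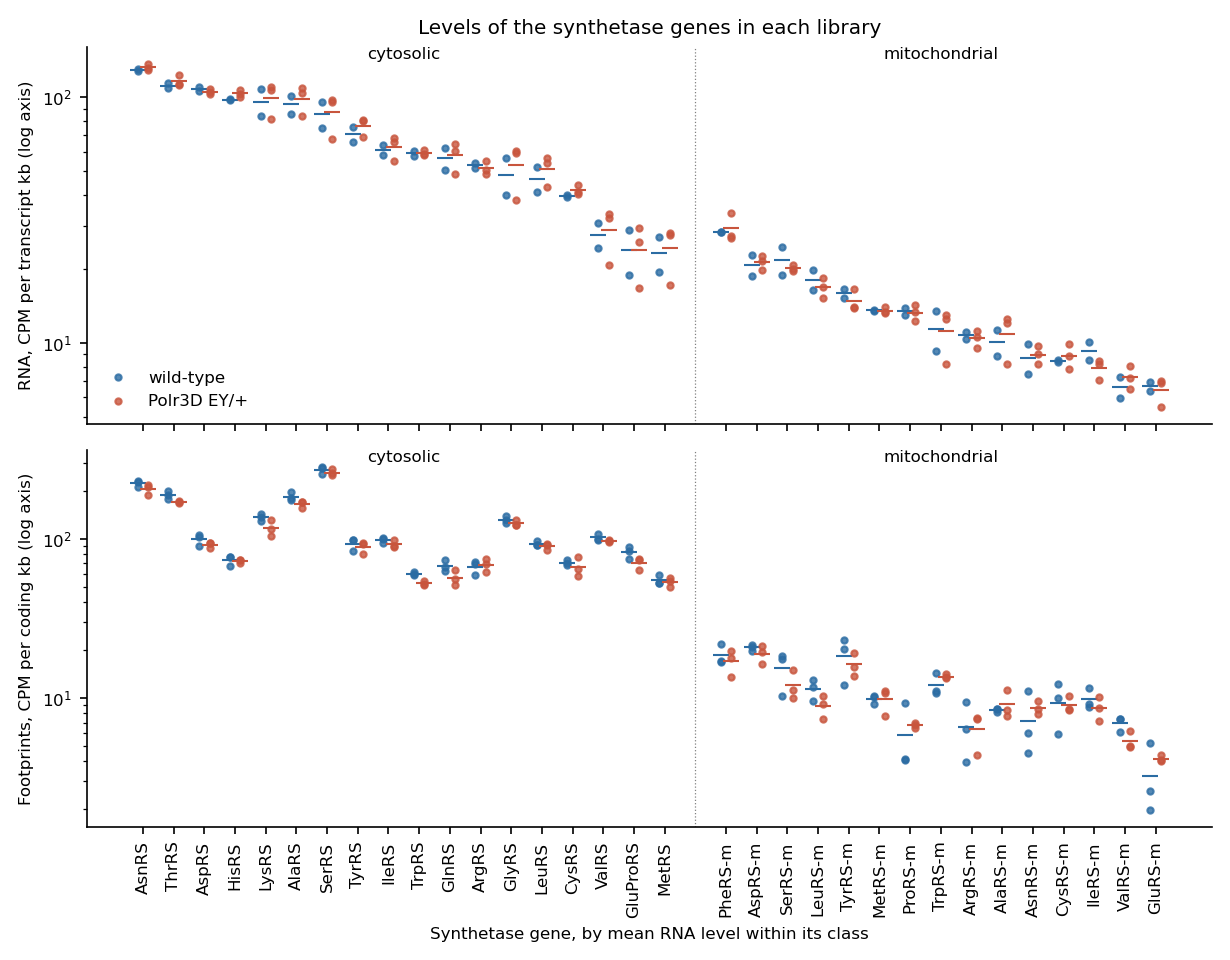
RNA in CPM per transcript kb (upper panel) and footprints in CPM per coding kb (lower panel) of the 33 synthetase genes on log axes, with 1 point per library and a bar at the mean of each genotype. In footprints every cytosolic gene lies above every mitochondrial gene. In RNA the ranges of GluProRS, MetRS and ValRS overlap those of PheRS-m, AspRS-m and SerRS-m, and those of GluProRS and MetRS also overlap that of LeuRS-m.

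In RNA the order of the cytosolic genes was led by AsnRS, ThrRS and AspRS. RNA of AsnRS was at 131 and 128 in the wild-type and 132, 137 and 129 in the Polr3D EY/+ libraries (CPM per kb). ThrRS was at 114 and 109 in the wild-type and 123, 112 and 114 in the Polr3D EY/+ libraries. AspRS was at 107 and 110.0 in the wild-type and 103, 108 and 105 in the Polr3D EY/+ libraries. The range of AsnRS lies above those of ThrRS and AspRS, while ThrRS and AspRS overlap. At the other end were ValRS, GluProRS and MetRS. RNA of ValRS was at 24.3 and 30.9 in the wild-type and 32.2, 20.8 and 33.5 in the Polr3D EY/+ libraries. GluProRS was at 18.98 and 28.7 in the wild-type and 25.7, 16.7 and 29.4 in the Polr3D EY/+ libraries. MetRS, which charges both the initiator and the elongator tRNA-Met, was at 19.5 and 26.9 in the wild-type and 27.4, 17.3 and 28.2 in the Polr3D EY/+ libraries. Ranges of these last 3 overlap, and all of them were lowest in wild-type replicate 1 and Polr3D EY/+ replicate 2. Across the 18 cytosolic genes the level of RNA per kb spanned from 23.9 (GluProRS and MetRS, means of 5 libraries) to 131 (AsnRS).

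Among the mitochondrial genes PheRS-m had the most RNA per kb and GluRS-m the least. PheRS-m, whose cytosolic counterpart is built from separate alpha and beta subunits, was at 28.3 and 28.2 in the wild-type and 33.95, 26.7 and 27.2 in the Polr3D EY/+ libraries (CPM per kb). AspRS-m was at 18.8 and 22.7 in the wild-type and 21.6, 19.7 and 22.6 in the Polr3D EY/+ libraries. SerRS-m was at 18.98 and 24.5 in the wild-type and 20.9, 19.7 and 20.05 in the Polr3D EY/+ libraries. PheRS-m lies above the other 14 mitochondrial genes in every library, and the ranges of AspRS-m and SerRS-m overlap. The 3 least abundant were IleRS-m, ValRS-m and GluRS-m. RNA of IleRS-m was at 8.54 and 10.05 in the wild-type and 8.44, 7.05 and 8.21 in the Polr3D EY/+ libraries. ValRS-m was at 5.95 and 7.30 in the wild-type and 8.06, 6.48 and 7.19 in the Polr3D EY/+ libraries. GluRS-m, the neighbour of TyrRS, was at 6.38 and 6.92 in the wild-type and 7.02, 6.88 and 5.47 in the Polr3D EY/+ libraries. The range of ValRS-m overlaps both of the others, and that of IleRS-m lies just above that of GluRS-m. TyrRS, across the 171 bases from GluRS-m, had RNA at 65.6 and 75.9 in the wild-type and 80.9, 68.9 and 80.4 in the Polr3D EY/+ libraries.

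To compare footprints with RNA within a gene, the assay effect was tested in the DESeq2 model with length-corrected normalisation, relative to the typical gene and over 10 libraries, without the footprints of wild-type replicate 3 (the study set that replicate aside). The labels do not say whether replicates are separate rearings of flies, and p-values measure the spread between these samples. Footprints relative to RNA were high for most cytosolic enzymes and low for most mitochondrial ones. Of the 18 cytosolic genes 11 were called higher (61.1%), 3 lower and 4 neither at an adjusted p under 0.1. Of the 15 mitochondrial genes 0 were called higher, 10 lower (66.7%) and 5 neither. Without each of the 3 libraries in which male markers stood higher, 11 cytosolic genes were called higher and 8 to 10 mitochondrial genes lower. Differences between the assays are common: 76.6% of 7683 genes tested were called, 38.7% higher and 38.0% lower. The members are thus called no more often than other genes, and it is the division by direction that follows the class. The median log2 ratio in this test was 0.39 for the cytosolic and -0.51 for the mitochondrial genes against -0.00058 for all genes tested. An assay-specific loss or gain of reads of a gene cannot be told apart from ribosome occupancy in this contrast. Scaled to protein-coding totals the median gene moved by -0.19 on the log2 scale, and all values here are relative to the median gene. Without a length correction 15 cytosolic genes were higher and 3 lower, and 1 mitochondrial gene was higher and 7 lower.

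The separation of the classes was present in each Ribo-Seq library. With each library set against the mean RNA of its genotype, the median log2 ratio of the cytosolic genes was 0.45, 0.51 and 0.48 in the wild-type and 0.29, 0.35 and 0.27 in Polr3D EY/+. For the mitochondrial genes it was -0.48, -0.61 and -0.68 in the wild-type and -0.66, -0.62 and -0.74 in Polr3D EY/+. The cytosolic median exceeded the mitochondrial one by 1.03 ± 0.10 (SD over 6 libraries, 0.93 to 1.17) on the log2 scale. Leaving out the 5 cytosolic enzymes of amino acids with no -m gene, the difference was 1.13 ± 0.06 (SD over 6 libraries). In each library 11 to 14 of the 18 cytosolic genes lay above every mitochondrial gene. The libraries of a genotype share their RNA values, so the spread given here is that of the footprints.

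**Figure D2:**
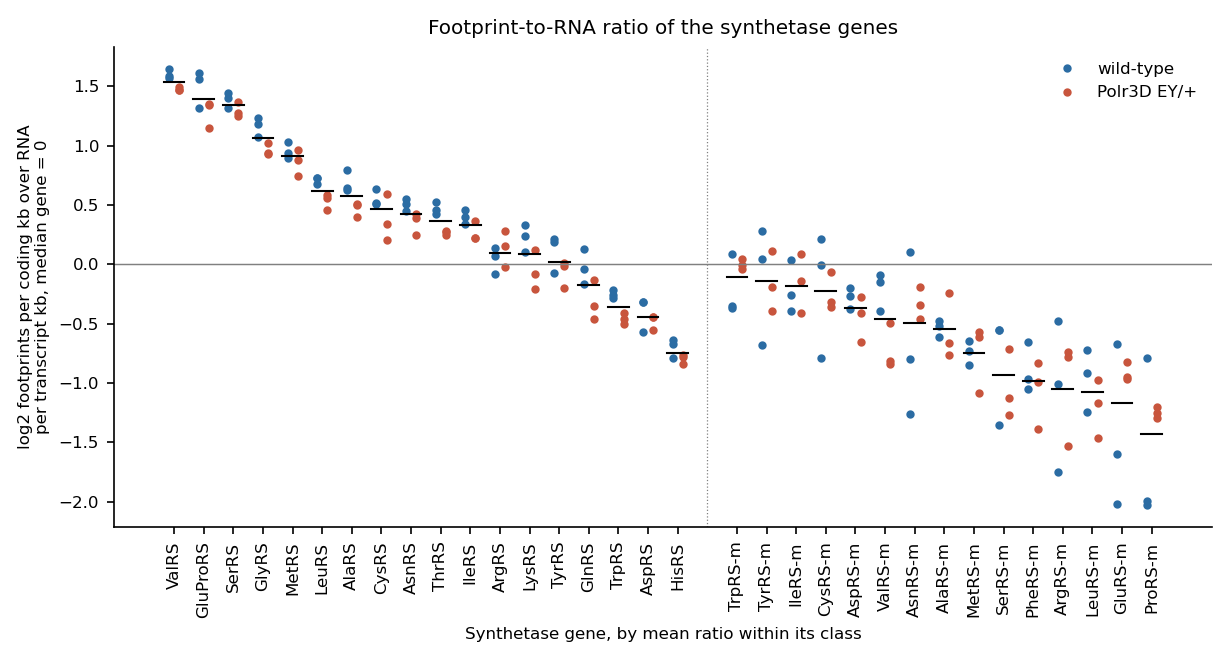
Log2 ratio of footprints per coding kb to RNA per transcript kb, with the median gene of each library at 0, for each synthetase gene in the 6 Ribo-Seq libraries (points) with the mean over libraries (black bars). Cytosolic means run from 1.54 (ValRS) to -0.75 (HisRS), and all 15 mitochondrial means lie below 0, from -0.11 (TrpRS-m) to -1.43 (ProRS-m).

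Genes of similar abundance and the proteins of both ribosomes gave other values. The 3270 genes within the range of RNA per kb of the cytosolic enzymes had a median log2 ratio of -0.12, and the 3191 genes within that of the mitochondrial enzymes had -0.24. Within the narrower range between the quartiles of each class, 1161 genes had 0.01 for the cytosolic and 1283 genes had -0.18 for the mitochondrial enzymes. Cytosolic ribosomal proteins, the abundant partners of the cytosolic enzymes in translation, had a median of -0.98 over 82 genes tested. Mitochondrial ribosomal proteins, which with the -m enzymes make up the mitochondrial translation machinery, had -0.16 over 74 genes, with 37.8% above 0. No mitochondrial synthetase had a mean above 0. Within the cytosolic genes the ratio was lower where RNA was higher (Spearman rho -0.55, Pearson r -0.55 across 18 genes) and higher where the coding sequence was longer (rho 0.54, r 0.56). Across the 15 mitochondrial genes these values were -0.12 and -0.21 for RNA and 0.37 and 0.37 for coding length. The RNA value enters both axes of the first relation, and genes are not independent replicates.

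The highest ratios belonged to ValRS, GluProRS and SerRS. ValRS, a large class I enzyme that also removes wrongly attached threonine, was among the least abundant cytosolic genes in RNA, yet its footprints were at 98.5, 108 and 99.8 in the wild-type and 98.3, 96.95 and 95.8 in the Polr3D EY/+ libraries (CPM per kb). Its footprint-to-RNA log2 ratio was 1.55 ± 0.14 (SE, adjusted p = 3.86e-28), a 2.93-fold excess over the typical gene. Footprints of GluProRS were at 83.8, 74.03 and 88.5 in the wild-type and 74.2, 73.9 and 63.6 in the Polr3D EY/+ libraries. With a ratio of 1.37 ± 0.16 (SE, adjusted p = 1.75e-17), GluProRS combined low RNA, level with that of MetRS at the bottom of its class, with footprints within the cytosolic range. SerRS was high in both assays. Its RNA was at 75.03 and 95.5 in the wild-type and 97.4, 67.8 and 96.1 in the Polr3D EY/+ libraries, and its footprints were at 253, 279 and 282 in the wild-type and 273, 257 and 249 in the Polr3D EY/+ libraries, the highest of all 33 genes in every library. The log2 ratio of SerRS was 1.33 ± 0.13 (SE, adjusted p = 4.39e-24).

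GlyRS and MetRS followed. RNA of GlyRS was at 39.9 and 56.9 in the wild-type and 59.4, 38.3 and 60.7 in the Polr3D EY/+ libraries. Its footprints were at 130.1, 126 and 139 in the wild-type and 122, 131 and 121 in the Polr3D EY/+ libraries, and its log2 ratio was 1.05 ± 0.15 (SE, adjusted p = 3.07e-12). The RNA libraries differ by up to 1.58-fold for GlyRS and the footprint libraries by 1.14-fold. Footprints of MetRS were at 52.9, 58.9 and 52.5 in the wild-type and 49.5, 54.2 and 56.995 in the Polr3D EY/+ libraries, which gave a log2 ratio of 0.93 ± 0.15 (SE, adjusted p = 1.73e-09). MetRS and TrpRS had the fewest footprints per kb of the cytosolic genes by mean.

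LeuRS, AlaRS, CysRS, AsnRS, ThrRS and IleRS were also called higher, with smaller ratios. LeuRS and IleRS, like ValRS, are class I editing enzymes for branched amino acids. RNA of LeuRS was at 41.3 and 52.02 in the wild-type and 54.1, 43.04 and 56.6 in the Polr3D EY/+ libraries, its footprints were at 91.7, 96.2 and 90.8 in the wild-type and 92.98, 91.8 and 84.6 in the Polr3D EY/+ libraries, and its log2 ratio was 0.63 ± 0.12 (SE, adjusted p = 3.29e-07). RNA of IleRS was at 58.5 and 64.1 in the wild-type and 65.7, 55.05 and 68.3 in the Polr3D EY/+ libraries and its footprints were at 99.8, 100.5 and 94.5 in the wild-type and 89.2, 89.7 and 97.5 in the Polr3D EY/+ libraries. Its log2 ratio of 0.35 ± 0.10 (SE, adjusted p = 0.00121) was not called when counts were scaled to protein-coding totals (0.16, adjusted p = 0.154). AlaRS, which clears wrongly attached serine and glycine, had RNA at 85.4 and 102 in the wild-type and 109, 83.6 and 104 in the Polr3D EY/+ libraries. Footprints of AlaRS were at 174, 179.8 and 197 in the wild-type and 170.0, 171 and 157 in the Polr3D EY/+ libraries, a log2 ratio of 0.55 ± 0.11 (SE, adjusted p = 2.27e-06). CysRS had RNA at 40.04 and 39.3 in the wild-type and 44.04, 41.2 and 40.4 in the Polr3D EY/+ libraries and footprints at 73.3, 70.5 and 68.6 in the wild-type and 64.3, 76.8 and 58.2 in the Polr3D EY/+ libraries, with a log2 ratio of 0.49 ± 0.12 (SE, adjusted p = 6.99e-05). The genes with the most RNA had modest ratios. Footprints of AsnRS were at 209.7, 228 and 229 in the wild-type and 210.4, 217 and 189 in the Polr3D EY/+ libraries, a log2 ratio of 0.41 ± 0.10 (SE, adjusted p = 6.42e-05). Footprints of ThrRS were at 178, 199.8 and 187 in the wild-type and 168, 172 and 169 in the Polr3D EY/+ libraries, a log2 ratio of 0.37 ± 0.10 (SE, adjusted p = 4.40e-04).

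ArgRS, LysRS, TyrRS and GlnRS were not called in either direction. Their log2 ratios were 0.06 with a 95% interval of -0.17 to 0.30 for ArgRS and 0.01 (-0.23 to 0.25) for TyrRS. For LysRS the value was 0.08 (-0.17 to 0.34), and for GlnRS it was -0.16 (-0.42 to 0.09). Without a length correction all 4 were called higher, and the direction of GlnRS was then the opposite. RNA of LysRS was at 84.3 and 108 in the wild-type and 108, 81.3 and 110.2 in the Polr3D EY/+ libraries and its footprints were at 144, 128 and 138 in the wild-type and 131, 115 and 104 in the Polr3D EY/+ libraries. RNA of GlnRS, the only enzyme of an amino acid for which mitochondria use another route, was at 50.7 and 62.3 in the wild-type and 64.9, 48.7 and 60.7 in the Polr3D EY/+ libraries. Footprints of GlnRS were at 73.2, 62.6 and 66.6 in the wild-type and 51.1, 55.5 and 63.7 in the Polr3D EY/+ libraries. RNA of ArgRS was at 51.7 and 54.3 in the wild-type and 50.6, 54.9 and 48.7 in the Polr3D EY/+ libraries and its footprints were at 59.6, 69.2 and 71.1 in the wild-type and 61.5, 69.6 and 74.9 in the Polr3D EY/+ libraries. Footprints of TyrRS were at 97.4, 83.7 and 98.2 in the wild-type and 93.99, 92.5 and 80.5 in the Polr3D EY/+ libraries. These genes thus lay near the typical gene, with ratios over the 6 libraries from -0.47 (GlnRS) to 0.33 (LysRS).

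HisRS, AspRS and TrpRS were the cytosolic enzymes called lower. RNA of HisRS was at 97.4 and 98.7 in the wild-type and 108, 103 and 101 in the Polr3D EY/+ libraries, among the highest of the class. Its footprints were at 67.2, 76.3 and 76.8 in the wild-type and 70.5, 73.7 and 73.4 in the Polr3D EY/+ libraries, and its log2 ratio was -0.77 ± 0.11 (SE, adjusted p = 5.71e-11). Footprints of AspRS were at 103, 90.6 and 106 in the wild-type and 94.03, 87.5 and 93.3 in the Polr3D EY/+ libraries, a log2 ratio of -0.46 ± 0.11 (SE, adjusted p = 6.92e-05). TrpRS, one of the smallest enzymes of the set with a coding length of 1293 bases, had RNA at 57.8 and 60.8 in the wild-type and 61.3, 58.9 and 58.03 in the Polr3D EY/+ libraries. Footprints of TrpRS were at 58.9, 60.4 and 61.99 in the wild-type and 50.9, 54.3 and 52.03 in the Polr3D EY/+ libraries, and its log2 ratio was -0.36 ± 0.13 (SE, adjusted p = 0.00586). All 3 were below the median gene in each of the 6 libraries. HisRS and AspRS are among the genes whose exons overlap another annotated gene, and the part of that overlap in their ratios was not tested.

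Enzyme class and membership of the multi-synthetase complex were set beside these values, a grouping made after the values were seen. Among the cytosolic genes 5 of 9 class I enzymes were called higher and 1 lower, and 5 of 8 class II enzymes were called higher and 2 lower, with median log2 ratios of 0.35 and 0.39 (GluProRS, which joins an enzyme of each class, was left out). Of the 8 members of the multi-synthetase complex (ArgRS, AspRS, GlnRS, GluProRS, IleRS, LeuRS, LysRS and MetRS, as known from animals) 4 were called higher and 1 lower, with a median of 0.22. Of the 10 others 7 were called higher and 2 lower, with a median of 0.45. The difference between these groups was not tested.

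Among the mitochondrial enzymes ProRS-m, LeuRS-m, ArgRS-m, GluRS-m and PheRS-m had the lowest ratios. Footprints of ProRS-m were at 9.28, 4.10 and 4.12 in the wild-type and 6.77, 7.01 and 6.49 in the Polr3D EY/+ libraries, against RNA at 13.1 and 13.9 in the wild-type and 13.4, 14.2 and 12.3 in the Polr3D EY/+ libraries (CPM per kb). The log2 ratio of ProRS-m was -1.24 ± 0.26 (SE, adjusted p = 3.31e-06). RNA of LeuRS-m was at 16.4 and 19.9 in the wild-type and 18.3, 15.2 and 16.97 in the Polr3D EY/+ libraries, its footprints were at 13.1, 9.51 and 11.7 in the wild-type and 7.40, 9.12 and 10.3 in the Polr3D EY/+ libraries, and its log2 ratio was -1.06 ± 0.18 (SE, adjusted p = 6.05e-09). ArgRS-m, whose exons overlap mRpS9, had RNA at 10.4 and 11.1 in the wild-type and 11.2, 10.6 and 9.58 in the Polr3D EY/+ libraries and footprints at 6.37, 3.97 and 9.41 in the wild-type and 7.37, 4.39 and 7.54 in the Polr3D EY/+ libraries. Its log2 ratio was -1.20 ± 0.25 (SE, adjusted p = 3.51e-06). GluRS-m had the fewest footprints, 4 to 20 counts in a library. Per kb they were at 2.61, 5.20 and 1.99 in the wild-type and 3.999, 4.08 and 4.38 in the Polr3D EY/+ libraries, a log2 ratio of -1.02 ± 0.31 (SE, adjusted p = 0.00164). Its mean over the 6 Ribo-Seq libraries was under the minimum of 10 counts set for other genes, yet GluRS-m is held in the class medians. It was not tested with all 11 libraries or without Polr3D EY/+ replicate 2, which left 32 members. PheRS-m was first in RNA but not in footprints, which were at 17.2, 16.9 and 21.9 in the wild-type and 13.5, 17.9 and 19.8 in the Polr3D EY/+ libraries. Its log2 ratio was -1.02 ± 0.18 (SE, adjusted p = 5.89e-08).

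SerRS-m, MetRS-m, AlaRS-m, ValRS-m and AspRS-m were called lower with ratios closer to the typical gene. Footprints of SerRS-m were at 17.6, 18.4 and 10.3 in the wild-type and 11.2, 14.99 and 10.1 in the Polr3D EY/+ libraries, a log2 ratio of -0.77 ± 0.20 (SE, adjusted p = 1.72e-04). RNA of MetRS-m was nearly the same in every library, at 13.6 and 13.5 in the wild-type and 13.97, 13.3 and 13.4 in the Polr3D EY/+ libraries. Footprints of MetRS-m were at 10.3, 10.1 and 9.16 in the wild-type and 11.04, 10.7 and 7.69 in the Polr3D EY/+ libraries, a log2 ratio of -0.71 ± 0.20 (SE, adjusted p = 6.55e-04). AlaRS-m had RNA at 8.86 and 11.3 in the wild-type and 12.02, 8.21 and 12.5 in the Polr3D EY/+ libraries. Its footprints were at 8.58, 8.17 and 8.54 in the wild-type and 8.37, 11.2 and 7.75 in the Polr3D EY/+ libraries, a log2 ratio of -0.51 ± 0.20 (SE, adjusted p = 0.0156). AspRS-m had footprints at 21.5, 19.8 and 21.01 in the wild-type and 16.4, 19.5 and 21.1 in the Polr3D EY/+ libraries, a log2 ratio of -0.36 ± 0.14 (SE, adjusted p = 0.0127). Footprints of ValRS-m were at 7.39, 7.43 and 6.14 in the wild-type and 4.998, 4.93 and 6.20 in the Polr3D EY/+ libraries, a log2 ratio of -0.42 ± 0.20 (SE, adjusted p = 0.0540). The calls of the last 3 were the least firm. ValRS-m lost its call without wild-type replicate 1 (-0.48), wild-type replicate 2 (-0.34), Polr3D EY/+ replicate 1 (-0.35) or Polr3D EY/+ replicate 2 (-0.44). AlaRS-m lost its call without wild-type replicate 2 (-0.41) or Polr3D EY/+ replicate 1 (-0.43), and AspRS-m without wild-type replicate 2 (-0.27). All 3 lost it without the length correction.

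The 5 mitochondrial genes not called were TrpRS-m, TyrRS-m, CysRS-m, IleRS-m and AsnRS-m. RNA of TrpRS-m was at 9.30 and 13.5 in the wild-type and 13.1, 8.17 and 12.5 in the Polr3D EY/+ libraries. Footprints of TrpRS-m were at 14.4, 11.1 and 10.7 in the wild-type and 14.1, 13.3 and 13.5 in the Polr3D EY/+ libraries, and its log2 ratio was -0.05 with a 95% interval of -0.46 to 0.36. TyrRS-m, with RNA at 15.2 and 16.6 in the wild-type and 16.6, 13.97 and 13.9 in the Polr3D EY/+ libraries, was close to the typical gene. Footprints of TyrRS-m were at 23.001, 20.3 and 12.04 in the wild-type and 15.7, 13.7 and 19.3 in the Polr3D EY/+ libraries, and its log2 ratio was -0.00 (-0.37 to 0.36). CysRS-m had RNA at 8.35 and 8.52 in the wild-type and 8.86, 7.81 and 9.88 in the Polr3D EY/+ libraries and footprints at 9.97, 12.2 and 5.92 in the wild-type and 8.37, 10.3 and 8.52 in the Polr3D EY/+ libraries, a log2 ratio of -0.05 (-0.47 to 0.37). The footprints of IleRS-m were at 9.23, 8.79 and 11.6 in the wild-type and 8.70, 10.2 and 7.14 in the Polr3D EY/+ libraries, a log2 ratio of -0.22 (-0.59 to 0.15). AsnRS-m had RNA at 9.93 and 7.45 in the wild-type and 9.05, 8.18 and 9.68 in the Polr3D EY/+ libraries. Its footprints varied most among these genes, at 11.1, 4.49 and 6.07 in the wild-type and 9.52, 7.93 and 8.51 in the Polr3D EY/+ libraries, with 7 to 35 counts in a library. The log2 ratio of AsnRS-m was -0.37 (-0.86 to 0.13). The intervals of all 5 include 0, and whether they differ from those of the genes called was not tested.

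For 14 amino acids the set holds an enzyme of each compartment, which allows the levels to be compared for the same charging reaction. The cytosolic gene had more RNA per kb than its mitochondrial counterpart for all 14, by a median of 4.82-fold, and more footprints by a median of 10.96-fold. The largest differences in RNA were those of asparagine, alanine and isoleucine. AsnRS exceeded AsnRS-m by 14.97-fold in RNA (13.2 to 17.1 over the libraries) and 29.8-fold in footprints (18.9 to 50.8). AlaRS exceeded AlaRS-m by 9.24-fold in RNA (8.30 to 10.2 over the libraries) and 20.2-fold in footprints (15.2 to 23.1). IleRS exceeded IleRS-m by 7.43-fold in RNA (6.38 to 8.32 over the libraries) and 10.5-fold in footprints (8.14 to 13.7). The smallest were those of methionine, proline and leucine. MetRS exceeded MetRS-m by 1.76-fold in RNA (1.30 to 2.11 over the libraries) and 5.60-fold in footprints (4.48 to 7.41). GluProRS exceeded ProRS-m by 1.80-fold in RNA (1.18 to 2.40 over the libraries) and 13.3-fold in footprints (9.03 to 21.5). LeuRS exceeded LeuRS-m by 2.85-fold in RNA (2.52 to 3.34 over the libraries) and 9.29-fold in footprints (7.02 to 12.6). Enzymes that were near each other in RNA were thus far apart in footprints. Against GluRS-m, GluProRS was higher by 3.72-fold in RNA (2.43 to 5.36 over the libraries) and 23.7-fold in footprints (14.2 to 44.5).

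**Figure D3:**
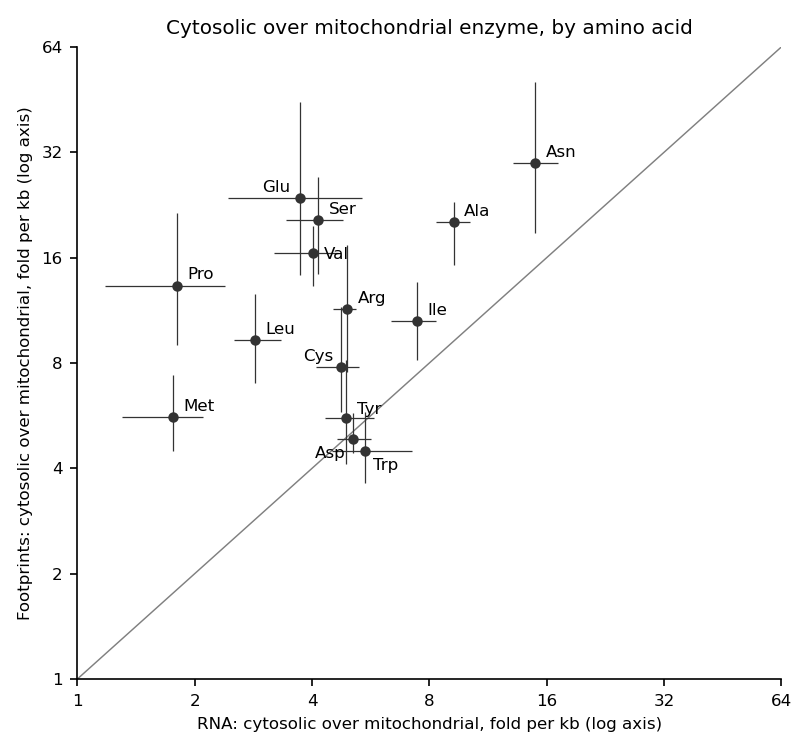
Cytosolic level over mitochondrial level of the enzymes of 14 amino acids, in RNA (x) and in footprints (y), each as fold per kb on log axes, with the mean over libraries (points), the lowest and highest library (bars) and the line of equality. GluProRS stands for both Glu and Pro. For 12 amino acids the point lies above the line, and for Trp and Asp it lies below.

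Footprints widened the difference for 12 of the 14 amino acids. For 10 amino acids the lowest fold in footprints was above the highest fold in RNA. SerRS exceeded SerRS-m by 4.15-fold in RNA (3.44 to 4.79 over the libraries) and 20.5-fold in footprints (14.4 to 27.3), and ValRS exceeded ValRS-m by 4.04-fold in RNA (3.20 to 4.65 over the libraries) and 16.5-fold in footprints (13.3 to 19.7). The footprint-to-RNA ratio of the cytosolic gene was the higher in all 6 Ribo-Seq libraries for 11 amino acids. The exceptions were Tyr, with 3 of 6 libraries, Trp with 2 and Asp with 1. TyrRS exceeded TyrRS-m by 4.90-fold in RNA (4.32 to 5.78 over the libraries) and 5.57-fold in footprints (4.12 to 8.16). TrpRS exceeded TrpRS-m by 5.46-fold in RNA (4.51 to 7.21 over the libraries) and 4.48-fold in footprints (3.62 to 5.79). AspRS exceeded AspRS-m by 5.08-fold in RNA (4.64 to 5.67 over the libraries) and 4.84-fold in footprints (4.42 to 5.74). For these 3 amino acids the enzymes of the compartments stood at about the same ratio, with mean log2 differences of 0.16 ± 0.43, -0.25 ± 0.29 and -0.07 ± 0.15 (SD over 6 libraries). GluProRS takes part in 2 of the 14 comparisons, so these are not independent.

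The amino acids glycine, histidine, lysine and threonine have a cytosolic gene and no gene of the -m series in this set. Each of these genes is annotated with transcripts that differ in their coding start, and the share of counts given to each start was read from the transcripts. The longer coding form of GlyRS (2298 against 2040 bases, start at 15095262 on 3L) took 13.1% and 8.02% in the wild-type and 10.5%, 11.2% and 8.10% in the Polr3D EY/+ libraries of GlyRS RNA counts, and 0 of 2519 footprint counts. The longer form of ThrRS (2244 against 2073 bases, start at 12103895 on 2L) took 23.2% and 22.1% in the wild-type and 18.9%, 20.6% and 18.2% in the Polr3D EY/+ libraries in RNA. Its share of footprints was 7.31%, 6.53% and 12.4% in the wild-type and 7.94%, 5.27% and 11.6% in the Polr3D EY/+ libraries. The ranges of the assays do not overlap for GlyRS or ThrRS, and the longer form was the smaller part in both. LysRS gave 5.01% and 6.22% in the wild-type and 4.65%, 5.56% and 5.002% in the Polr3D EY/+ libraries of its RNA to the longer form (1824 against 1725 bases), and its footprint shares ran from 0% to 11.6%. The second start of HisRS, at 18517551 on X, took 12.1% and 12.3% in the wild-type and 12.97%, 13.6% and 9.92% in the Polr3D EY/+ libraries of RNA, and its footprint shares ran from 0% to 26.1%, with 0 counts in 3 of 6 libraries. For LysRS and HisRS the footprint shares overlap those of RNA.

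GluProRS has a shorter form (2991 against 5145 bases) that starts at 23955493 on 3R, downstream of the full start. This form took 27.6% and 31.7% in the wild-type and 27.5%, 30.2% and 33.4% in the Polr3D EY/+ libraries of GluProRS RNA. In footprints it had counts in 1 of 6 libraries, 32 of 3239 over all of them. Salmon divides fragments that match several transcripts by a model, and its estimates for short footprints can go wholly to 1 form: the footprints of AspRS-m were given entirely to the longer coding form in 3 libraries and entirely to the shorter one in the other 3. Shares of single forms in footprints are therefore estimates of low certainty. Sums of counts over a gene do not depend on this division, but levels per kb and ratios do through the lengths. Those lengths are weighted by the RNA counts of the forms. For GluProRS the coding length used was 4492 bases, while 3207 of 3239 footprint counts were given to the form of 5145 bases. The effect on its ratio was not tested.

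**Figure D4:**
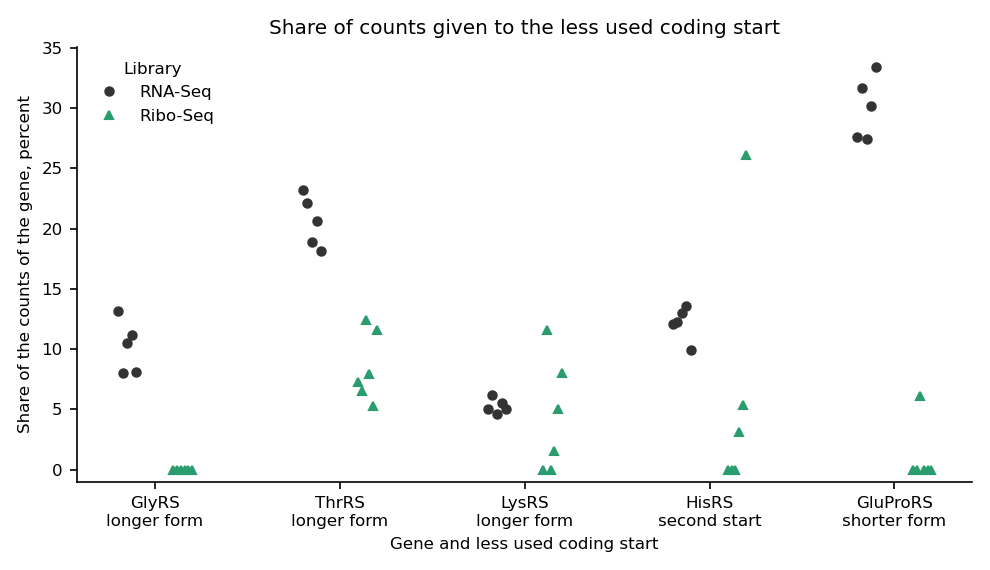
Share of the counts of a gene given to its less used coding start in each RNA-Seq library (circles) and Ribo-Seq library (triangles). For GlyRS and ThrRS all RNA shares lie above all footprint shares, and the shorter form of GluProRS takes 27.5% to 33.4% of RNA and 0% to 6.14% of footprints.

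Between the genotypes 0 of the 33 genes were called, whether in RNA, in footprints or in translation efficiency (the footprint change minus the RNA change). DESeq2 called 1.07% of 12743 genes in RNA, 0.408% in footprints and 0.337% for translation efficiency, so a count of 0 among 33 does not stand apart from the background. That background depended on the replicate term and on single libraries: beside the 136, 52 and 43 genes called, the model with no replicate block called 46, 54 and 7, and leaving out Polr3D EY/+ RNA-Seq replicate 1 gave 4, 19 and 3. The count of members was 0 in each of these fits. At an unadjusted p under 0.05 the count of members was also 0 in each contrast, against 1.80%, 3.36% and 1.99% of all genes. With edgeR the count was 0 in each contrast as well. The intervals show what size of change remains possible. For the cytosolic enzymes the 95% intervals of the log2 change lay between -0.55 and 0.50 in RNA, between -0.70 and 0.45 in footprints, and between -0.78 and 0.59 in translation efficiency. For the mitochondrial enzymes, with fewer counts, they lay between -0.71 and 0.75 in RNA, between -1.20 and 1.32 in footprints and between -1.43 and 1.48 in translation efficiency. The cytosolic medians were 0.02 in RNA and -0.08 in footprints, and the mitochondrial medians were 0.02 and 0.02, beside 0.00311 and -0.04 for all genes tested. For genes that averaged 10 counts or more in both assays they were 0.0025 and -0.01.

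**Figure D5:**
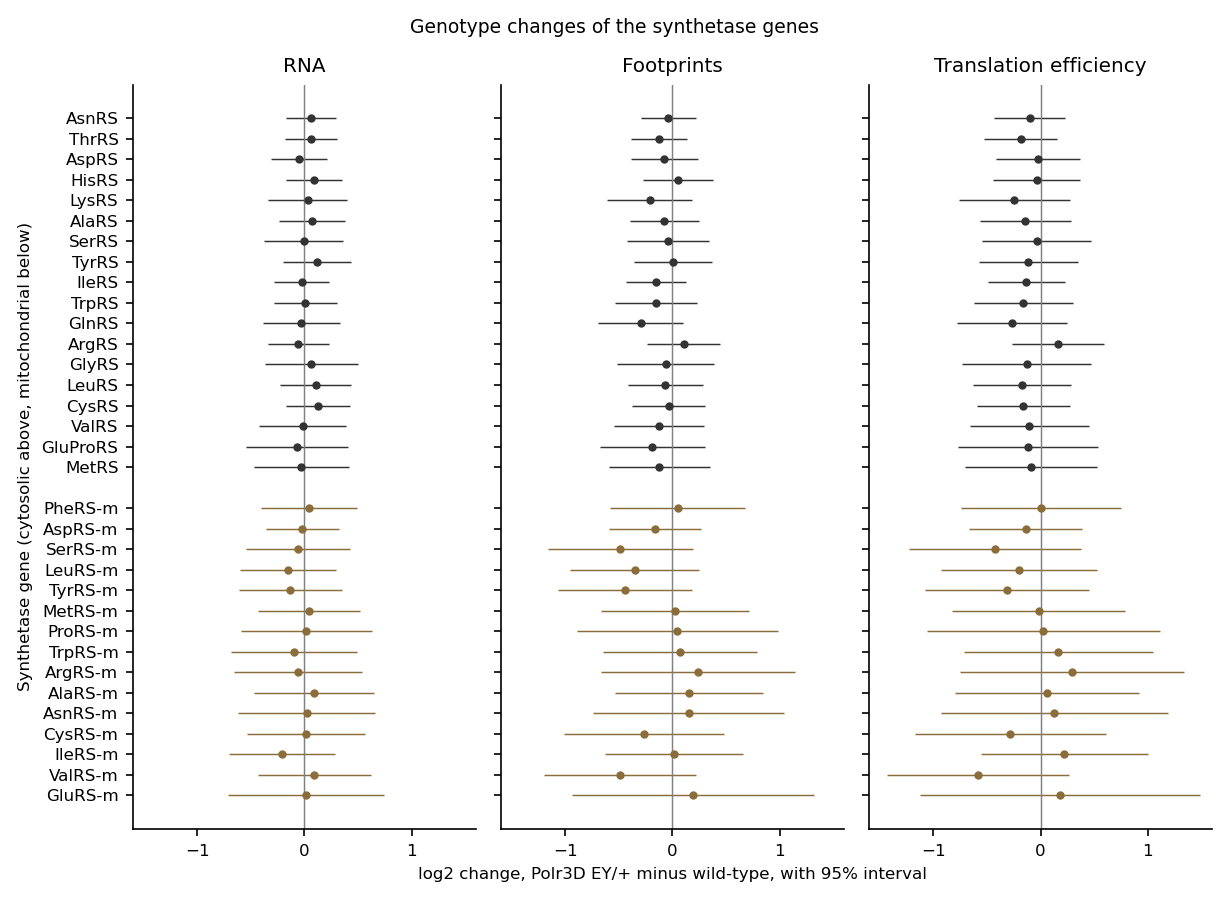
Log2 change (Polr3D EY/+ minus wild-type) in RNA, footprints and translation efficiency of each synthetase gene from DESeq2, with 95% intervals. No member was called, and the intervals are wider for the mitochondrial (lower) than for the cytosolic genes (upper).

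Summed cytosolic footprints were lower in each mutant library. The sum was 4626, 4709 and 4820 CPM in the wild-type and 4406, 4450 and 4243 CPM in Polr3D EY/+, with no overlap. Other genes moved the same way on this scale. With protein-coding totals as size factors the median log2 footprint change was -0.09 for cytosolic genes and -0.06 for all genes tested. For genes that averaged 10 counts or more in both assays it was -0.03, with 55.2% negative. The difference between the sums was not tested. The mitochondrial sums, 362, 323 and 317 CPM against 295, 324 and 320 CPM, overlapped. Single genes whose footprints did not overlap between the genotypes were AlaRS, ThrRS, TrpRS and ValRS, all lower in the mutant. They were 4 of 18 cytosolic and 0 of 15 mitochondrial genes, and so 4 of the 33 members. Of the 7624 genes that averaged 10 counts or more in both assays, 6.64% were lower without overlap (12.1% in either direction). None of the 4 passed the test, which leaves out the footprints of wild-type replicate 3. For AlaRS that library was the highest of the wild-type, at 197 CPM per kb. The log2 change of footprints was -0.08 ± 0.16 (SE, adjusted p = 0.99997) for AlaRS and -0.13 ± 0.13 (SE, adjusted p = 0.99997) for ThrRS. It was -0.15 ± 0.19 (SE, adjusted p = 0.99997) for TrpRS and -0.12 ± 0.21 (SE, adjusted p = 0.99997) for ValRS. With 3 libraries against 3 an exact permutation test of 1 gene cannot go below p = 0.1. The summed footprints of 7 female germline markers also did not overlap, at 455 to 494 CPM in the wild-type and 349 to 409 CPM in Polr3D EY/+, and their RNA sums overlapped (1397 to 1735 and 1457 to 1678 CPM). By marker, the log2 footprint change was -0.82 ± 0.25 (SE, adjusted p = 0.182) for osk. It was -0.36 ± 0.25 for otu, -0.34 ± 0.31 for stau and -0.24 ± 0.17 for vas (SE, adjusted p = 0.99997 for each). For orb it was -0.06 ± 0.23 (SE, adjusted p = 0.99997) and for bam 0.17 ± 0.58 (SE, adjusted p = 0.99997). Footprints of bam were at only 4.43 to 6.87 CPM, and those of bgcn were at 0 in every library. Of the 7 markers 0 passed the test. Footprints of the follicle cell lists lay the other way, with 5 vitelline membrane genes at 5107 to 5613 CPM in the wild-type and 5589 to 5865 CPM in the mutant and 6 chorion genes at 24502 to 29667 and 27648 to 31268 CPM, both with overlap. The part of the ovary in the synthetase values was not tested.

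In translation efficiency 17 of the 18 cytosolic genes had a negative log2 change, beside 51.7% of genes that averaged 10 counts or more in both assays. The cytosolic median was -0.12, against -0.03 for all genes tested and -0.01 for those that averaged 10 counts or more in both assays. ArgRS was the exception at 0.16 ± 0.22 (SE, adjusted p = 0.9999). The count of 17 depended on the libraries kept. Without wild-type replicate 1, 9 of 18 were negative, beside 49.3% of genes, and the median was 0.00114. That fit holds 1 wild-type library per assay, as the footprints of wild-type replicate 3 are already left out. Without wild-type replicate 2, which also leaves 1 per assay, 16 were negative. With edgeR, all 11 libraries or no replicate block the count was again 17. Without the libraries in which male markers stood higher the count was 12 of 18 (Polr3D EY/+ RNA-Seq replicate 1), 15 (wild-type Ribo-Seq replicate 2) and 14 (Polr3D EY/+ Ribo-Seq replicate 3). The share of all genes in these fits was 49.1% to 50.7%. The fit without wild-type Ribo-Seq replicate 2 holds 1 wild-type Ribo-Seq library. Of the mitochondrial genes 7 of 15 were negative, with a median of 0.00371, and 11 of 15 without wild-type Ribo-Seq replicate 2, with a median of -0.16. In RNA CysRS and HisRS were higher in all mutant libraries and IleRS-m lower, 3 of 33 genes, beside 9.55% of genes in either direction. With 2 wild-type libraries against 3, the smallest exact p of 1 gene is 0.2. The log2 change of RNA was 0.12 ± 0.15 (SE, adjusted p = 0.99998) for CysRS, 0.09 ± 0.13 (SE, adjusted p = 0.99998) for HisRS and -0.21 ± 0.25 (SE, adjusted p = 0.99998) for IleRS-m.

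Libraries of the same genotype also differed from each other in RNA. For 11 of 18 cytosolic and 7 of 15 mitochondrial genes the RNA-Seq libraries of wild-type replicate 1 and Polr3D EY/+ replicate 2 were the lowest, beside 37.3% of the 7624 genes that averaged 10 counts or more. The highest RNA library exceeded the lowest by 1.76-fold for GluProRS, 1.63-fold for MetRS, 1.61-fold for ValRS and 1.58-fold for GlyRS. For AspRS, AsnRS and TrpRS it did so by 1.07-fold, 1.07-fold and 1.06-fold. Footprints of ValRS and GlyRS varied by 1.12-fold and 1.14-fold over the 6 libraries. The median ratio of the highest to the lowest library over the cytosolic genes was 1.27 in RNA and 1.21 in footprints, and over the mitochondrial genes it was 1.28 and 1.77. The libraries that stand apart come from both genotypes, and the reason for the split was not tested.

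Partners of the enzymes were read from a fixed list of 10 genes, and 0 were called between the genotypes in RNA, footprints or translation efficiency. GatB, a subunit of the mitochondrial amidotransferase, had the largest footprint difference, -1.04 ± 0.36 (SE, adjusted p = 0.487), and it did not pass the test. In the footprint-to-RNA contrast 3 were higher, 4 lower and 3 neither, beside 38.7% of all genes higher and 38.0% lower, so they were called no more often than other genes. The higher ones all belong to the cytosolic machinery: alpha-PheRS (0.23 ± 0.13 (SE, adjusted p = 0.0939)) and beta-PheRS (0.47 ± 0.12 (SE, adjusted p = 2.13e-04)), the subunits of the cytosolic phenylalanyl enzyme, and the scaffold AIMP2 (0.33 ± 0.12 (SE, adjusted p = 0.00899)). The lower ones all belong to mitochondria: GatA (-1.25 ± 0.22 (SE, adjusted p = 5.14e-08)), GatB (-1.50 ± 0.20 (SE, adjusted p = 4.21e-13)) and GatC (-0.53 ± 0.26 (SE, adjusted p = 0.0569)), and Slimp (-0.54 ± 0.28 (SE, adjusted p = 0.0718)), a relative of SerRS-m known in flies. AIMP1, AIMP3 and Dtd were not called. The calls of alpha-PheRS, GatC and Slimp lie close to the threshold.

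Genes of the amino acid and stress response, through which in mammals uncharged tRNA raises synthetase transcription by the factor Atf4 (crc in flies), were read from a list of which 8 were found. None of the 8 was called between the genotypes. At an unadjusted p under 0.05 the counts were 1 in RNA, 0 in footprints and 1 for translation efficiency, beside 1.80%, 3.36% and 1.99% of all genes. Nmdmc, a folate enzyme induced by Atf4, had a log2 RNA change of -0.50 ± 0.16 (SE, adjusted p = 0.177). In the footprint-to-RNA contrast 2 of the 8 were higher and 6 lower, beside 38.7% and 38.0% of all genes. The mRNA of crc itself, which carries inhibitory upstream reading frames, was at -2.26 ± 0.14 (SE, adjusted p = 1.25e-58), lower than every synthetase.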

How the data were processed

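Whole female flies, wild-type and Polr3D EY/+, were measured by RNA-Seq and Ribo-Seq. Per the study's methods, the authors used RNase I for Ribo-Seq (with cycloheximide per the labels), trimmed reads with Cutadapt and quantified them with Salmon against a decoy-aware BDGP6.32 transcriptome with noncoding RNAs (k-mer 20 for Ribo-Seq). The deposited values are Salmon estimated counts per transcript, rounded to whole numbers by the authors and not normalised. Of 28367 features 28341 matched the BDGP6.54 annotation by transcript identifier, and 26490 were protein-coding. The 26 unmatched features and all noncoding ones, which held most Ribo-Seq counts, entered neither totals nor tests.

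Counts were summed over the transcripts of a gene. Levels are CPM of the protein-coding total per kb, with transcript length for RNA and coding length for footprints, weighted by RNA counts. Log2 ratios set each Ribo-Seq library against the mean RNA of its genotype, minus the median of 7624 genes that average 10 counts or more. Tests used DESeq2 1.42.0 (R 4.3.3) with median-of-ratios factors and terms for replicate, genotype, assay and their interaction, as in the study's methods, over 10 libraries with 6 parameters. Two-sided Wald p-values were adjusted over all genes by Benjamini-Hochberg, with calls under 0.1. The assay contrast used length-corrected factors. Alternatives were edgeR 4.0.16, other size factors, filters, libraries and lengths. The code was tested on simulated data with 200 changed genes. No library pair agreed within sampling noise. Genes were named by rank of level, ratio and pair fold, and in effect all are given. The members and lists were chosen with earlier results of these data known. No sequences were used.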

Additional observations from a re-analysis of the deposited data

How the results depend on the processing

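The count of synthetase genes called between the genotypes was 0 in RNA, footprints and translation efficiency under every alternative run. Counts over all genes depended on the setting. In RNA, 136 genes were called, and 23 with edgeR, 72 with all 11 libraries, 23 with a count minimum of 10 and 5 to 39 when a replicate was left out. In footprints, 52 were called, 12 with the count minimum and 2 to 29 without a replicate. In translation efficiency, 43 were called, 19 with edgeR, 11 with all 11 libraries, 1 with the count minimum and 0 to 17 without a replicate. Leaving out single libraries gave 4 to 120 genes in RNA, 11 to 68 in footprints and 3 to 10 in translation efficiency. Those without a Ribo-Seq library (wild-type replicate 2 or Polr3D EY/+ replicate 3) were chosen after seeing the data, as was edgeR with no replicate block, which called 33, 34 and 5. DESeq2 with no replicate block called 46, 54 and 7. Libraries that share a number did not deviate together (correlations of -0.64 to 0.04), so the numbers are not taken to pair the samples. The main model nevertheless holds a replicate term, as in the methods of the study, and the report gives the counts with no replicate block beside it.

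In the footprint-to-RNA contrast 10 to 15 cytosolic genes were called higher and 7 to 12 mitochondrial genes lower over all alternatives, beside 11 and 10. Cytosolic genes called lower were 3 in the main fit. They were 4 with protein-coding totals as size factors and with edgeR with no replicate block. Without a length correction GlnRS moved from -0.16 to 0.25 and TyrRS-m from -0.00481 to 0.33, both then called higher, since coding and transcript lengths no longer entered. The difference between the class medians was 1.04 without length correction or with coding length in both assays, which are the same by construction, and 1.13 without the 5 cytosolic genes that have no -m counterpart. Footprint depth limits the mitochondrial enzymes, with 4 to 203 counts in a library.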
